A study of Mus musculus with 18 samples.

Results

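Pax1, Nkx2-2, Nkx2-4 and Insm1 are 4 developmental regulator genes that lie on mouse chromosome 2 on one side of Foxa2, between 0.669 and 1.82 Mb from its promoter. They were selected on these data, because the Foxa2 promoter was ligated to them often in embryonic stem cells (ESC) and less often in definitive endoderm (DE). The values in those cell types are therefore given as a description and without a test. Each gene is represented by its annotated body (GENCODE vM1 on mm9) plus 10 kb to each side, which makes 300 of the 441651 DpnII fragments of chromosome 2 and 4 of its 3619 annotated genes.

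The contacts were measured by NG Capture-C, in which crosslinked chromatin is cut with the restriction enzyme DpnII, fragments that lie together are ligated, and ligation products of chosen fragments, the viewpoints, are pulled down with probes and sequenced. Promoter viewpoints were captured in 9 libraries, 3 from each of 3 cell types. ESC of strain 129/Sv//EV were grown with LIF, and DE was made from ESC of the same strain as embryoid bodies that were moved to activin A and EGF and collected on day 5. The erythrocytes (PHS) came from the spleens of C57BL/6 mice treated with phenylhydrazine. In comparisons with them a difference in strain and a difference in cell type cannot be told apart. No group carries an engineered allele by its labels. The series holds no expression values, so the cell types were taken as labelled.

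Foxa2 encodes a forkhead transcription factor of the node, notochord and endoderm. Pax1 encodes a paired-box factor of the sclerotome and pharyngeal pouches, Nkx2-2 a homeobox factor of the ventral neural tube and endocrine pancreas, Nkx2-4 a homeobox factor related to Nkx2-1, and Insm1 a zinc-finger factor of neuroendocrine cells. In ESC, silent developmental regulators with CpG-rich promoters are commonly bound by polycomb complexes, and contacts among such genes over long distances are well known. Polycomb binding was not measured in these libraries.

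The fragment with the most Foxa2 contacts in ESC lay in coding sequence 0.80 kb downstream of the transcription start site (TSS) at Pax1 and 1.40 kb downstream at Nkx2-4, whereas at Nkx2-2 it lay 5.06 kb upstream of the TSS. At Nkx2-2 another fragment had the most contacts without ESC replicate 1 or 2, so the place of that gene's peak is not resolved. The top fragment of Insm1, with 2 CG in its central 300 bases, also changed with the libraries used and is not shown. The central 300 bases of the Pax1, Nkx2-4 and Nkx2-2 fragments are shown because they differ in CpG content, with 25, 43 and 1 CG in that order. They are from the mm9 (NCBIM37) reference, plus strand, 5′ to 3′, with every CG in capitals, at chr2:147191385-147191684 for Pax1, chr2:146909628-146909927 for Nkx2-4 and chr2:147017051-147017350 for Nkx2-2.
Pax1: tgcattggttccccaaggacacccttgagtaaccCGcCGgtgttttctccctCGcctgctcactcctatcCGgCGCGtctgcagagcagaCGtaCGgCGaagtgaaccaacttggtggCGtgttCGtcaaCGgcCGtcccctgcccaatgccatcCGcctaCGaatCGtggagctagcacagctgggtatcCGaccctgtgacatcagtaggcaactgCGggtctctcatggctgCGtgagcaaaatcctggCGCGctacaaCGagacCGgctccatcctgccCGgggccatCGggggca
Nkx2-4: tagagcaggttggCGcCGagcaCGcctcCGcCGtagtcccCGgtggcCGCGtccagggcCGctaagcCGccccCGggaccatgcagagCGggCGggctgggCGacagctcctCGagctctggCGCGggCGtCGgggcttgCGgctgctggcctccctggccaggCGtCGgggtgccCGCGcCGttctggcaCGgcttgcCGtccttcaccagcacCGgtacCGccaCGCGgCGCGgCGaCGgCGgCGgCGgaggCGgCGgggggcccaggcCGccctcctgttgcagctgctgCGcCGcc
Nkx2-2: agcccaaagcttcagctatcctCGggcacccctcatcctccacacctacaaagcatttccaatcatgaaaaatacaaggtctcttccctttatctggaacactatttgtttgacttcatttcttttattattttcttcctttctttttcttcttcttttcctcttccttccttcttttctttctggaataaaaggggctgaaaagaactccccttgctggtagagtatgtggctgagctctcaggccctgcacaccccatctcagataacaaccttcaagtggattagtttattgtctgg

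The Foxa2 viewpoint, chr2:147871364-147873704, was read at a depth of 11426 to 19854 interactions in ESC libraries, 27540 to 46823 in DE libraries and 5005 to 22474 in erythrocyte libraries. Levels are given per 100000 interactions on chromosome 2. PHS replicate 3 stood apart from the other libraries, because 51.0% of its chromosome 2 interactions lay within 20 kb of the viewpoint, against 16.2% to 25.5% in the other 8. The share of interactions on chromosome 2 was 79.4% in PHS replicate 2, 44.7% and 42.8% in PHS replicates 1 and 3, and between 60.2% and 70.7% in ESC and DE. Erythrocyte levels and ratios are therefore given for each library.

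Together the 4 windows took 9.31% ± 0.405 (SD, n = 3) of the chromosome 2 interactions of Foxa2 in ESC, 2.22% ± 0.187 in DE and 0.507%, 0.428% and 0.553% in PHS replicates 1, 2 and 3. The make-up of the erythrocyte total varied, since Nkx2-2 held between 17.6% and 80.0% of it and Pax1 between 10.0% and 64.7%. The windows make up 0.0778% of the length of the chromosome's fragments. Pax1 and Nkx2-2 accounted for most of this contact in ESC, with 45.6% ± 1.56 and 43.6% ± 1.01 of the total of the 4 windows. Nkx2-4 and Insm1 held 5.49% ± 0.895 and 5.38% ± 1.20.

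**Figure D1:**
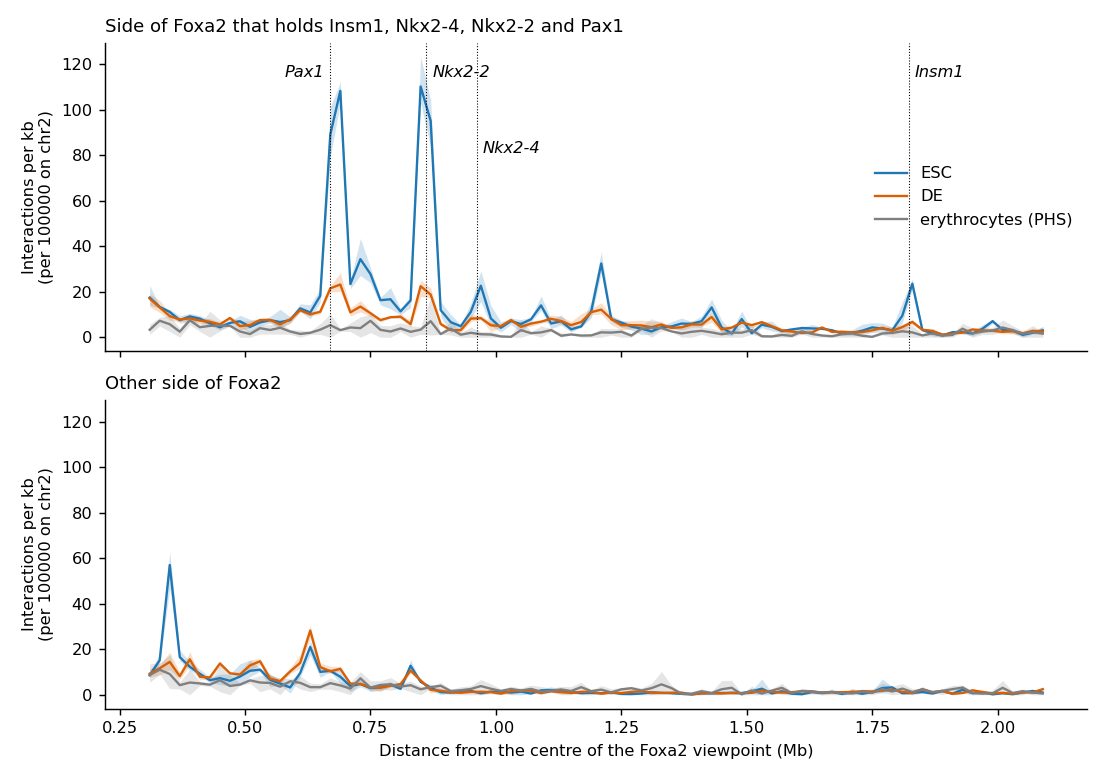
Interactions per kb in 20 kb steps against the distance from the centre of the Foxa2 viewpoint in Mb, on both sides of Foxa2. Lines are means of 3 libraries, shading runs from the lowest to the highest library, and dotted lines mark the middle of each gene's window. ESC values (blue) rise to 108 beside Pax1 and 110 beside Nkx2-2, and smaller rises stand at Nkx2-4 and Insm1. Outside the 4 windows ESC values reach 34.3 at 0.73 Mb, between Pax1 and Nkx2-2, and 32.4 at 1.21 Mb on the same side, and 57.0 at 0.35 Mb on the other side.

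Pax1, the nearest of the 4 genes (window chr2:147177661-147229031, 134 fragments), had levels of 4518, 4046 and 4157 in the ESC libraries. In DE its levels were 936, 1164 and 995, and in erythrocytes 279, 277 and 55.3. The 3 cell types did not overlap, and the mean was 4.11 times as high in ESC as in DE and 20.8 times as high in ESC as in erythrocytes. For this and the other 3 genes, the share of all genes without overlap was not counted. Of 13 listed genes outside the windows, 2 were lower and 3 higher in DE than in ESC without overlap. Separation of erythrocytes from ESC was not particular to the members. Of the listed genes, Plk1s1, Nxt1, Gzf1, Napb, Cst3, Sstr4 and Thbd were also lower in erythrocytes than in ESC without overlap. At Cd93, Rin2, Crnkl1, Naa20, Slc24a3 and Cstl1 the libraries of these cell types overlapped. Over all tested 5 kb bins of the chromosome, the median log2 difference of erythrocytes from ESC was -1.18.

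Nkx2-2 (window chr2:146993282-147029979, 83 fragments) had levels of 4138, 4039 and 3977 in ESC. The DE levels were 686, 813 and 898, and the erythrocyte levels 99.5, 75.5 and 442. The groups again did not overlap, but the highest erythrocyte value was that of PHS replicate 3, where 16 reads were spread over 11 fragments. Of the 4 genes Nkx2-2 had the largest ratio of ESC to DE means, 5.07.

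Nkx2-4 (window chr2:146899052-146921181, 34 fragments) lies 0.962 Mb from Foxa2 and had levels of 602, 537 and 400 in ESC. In DE it had 263, 242 and 187. The erythrocyte libraries held 5, 1 and 0 reads there, and the count of 0 allows a level of up to 82.9 (3 reads) in that library. Nkx2-4 had the smallest ratio of ESC to DE means, 2.23, again with no overlap between their libraries.

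Insm1 (window chr2:146037657-146060752, 49 fragments) is the farthest member, at 1.82 Mb. Its levels were 480, 623 and 400 in ESC and 144, 184 and 133 in DE. In erythrocytes they were 79.6, 50.3 and 55.3, on 8, 2 and 2 reads. The ratio of ESC to DE means was 3.26, and no library of one cell type reached into another. Per kb of window, Insm1 (20.4 ± 4.60 in ESC) and Nkx2-4 (21.4 ± 4.29) did not differ beyond their spread. Averaged over its window Nkx2-2 stood above Pax1 in ESC, at 109 ± 2.18 against 79.7 ± 4.63. In the 5 kb around the TSS the order was reversed, with 338 ± 10.6 at Pax1 and 179 ± 16.4 at Nkx2-2. The windows differ in length and in distance from Foxa2.

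**Figure D2:**
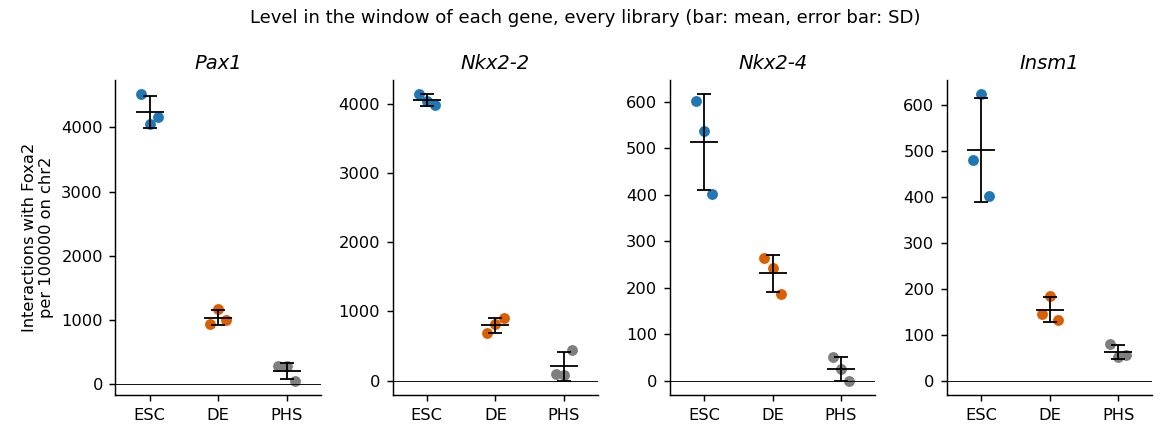
Interactions with Foxa2 per 100000 on chromosome 2 in the window of each gene, with 1 point per library, the mean as a bar and the SD as an error bar, on a separate axis for each gene. In all 4 genes the ESC libraries lie above the DE libraries and these above the erythrocyte libraries.

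Contact falls with distance from any viewpoint, so each window was set against fragments 0.9 to 1.1 times as far from Foxa2 on its other side. Over this reference Nkx2-2 stood 27.4 ± 0.993 times in ESC (SD, n = 3) and 5.66 ± 1.02 times in DE. Insm1 stood 18.2 ± 6.63 times in ESC and 4.80 ± 0.662 in DE. For Nkx2-4 the ratios were 15.7 ± 1.39 and 7.33 ± 0.216, and for Pax1 8.07 ± 0.523 and 1.56 ± 0.277. All 4 genes were thus above the other side in every ESC and DE library, and the ESC and DE ratios of each gene did not overlap. The other side itself held 9.91 ± 1.04 interactions per kb in ESC at the distance of Pax1 and 3.97 ± 0.226 or less at the other distances. At the distance of Pax1 it held 12.6 ± 1.43 in DE. Its highest 20 kb step there, at 0.63 Mb, held 21.0 in ESC and 28.2 in DE. The genes Nxt1, Gzf1 and Napb lie within this reference. The order of the genes depended on the window and reference, and Nkx2-4 in place of Pax1 was lowest in ESC with 5 kb to each side of the TSS, 20.4 against 20.9.

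The surroundings of the genes on their own side, 20 to 100 kb outside each window, gave a closer reference. Over this flank the ESC ratios were 8.43 ± 0.927 for Nkx2-2, 7.76 ± 1.14 for Insm1, 4.92 ± 0.766 for Pax1 and 3.03 ± 0.285 for Nkx2-4. In DE they were 3.18 ± 0.412, 2.56 ± 0.302, 2.09 ± 0.118 and 1.89 ± 0.368. The flank itself was raised over the other side in ESC, by 5.25 ± 0.947 times at Nkx2-4 and 1.67 ± 0.322 times at Pax1. Fragments in member windows were left out of it, but the flank of Nkx2-4 runs up to the Nkx2-2 window. Within that flank, at 0.89 Mb, ESC held 11.9 interactions per kb, against 1.14 on the other side. The values at Nkx2-4 thus cannot be told apart from its nearness to Nkx2-2. At Pax1 it was below the other side in every DE library, with a mean ratio of 0.745 ± 0.139.

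In erythrocytes, with the other side of Foxa2 as reference, the genes lay on both sides of it. Insm1 was above it in 3 of 3 libraries, with ratios of 2.48, 1.06 and 1.86. Nkx2-4 was below it in 3 of 3, with 0.659, 0.298 and 0 (1.53, 0.343 and 0 over its flank). Pax1 had 1.13, 1.06 and 0.264, and Nkx2-2 had 0.668, 0.461 and 8.20, so that the libraries of both genes lay on either side of 1. An exact two-sided sign-flip permutation test over 3 libraries can give no p under 0.25, so it could not pass for any gene. For the log2 ratio with 0.5 reads added to both terms the exact test gave this smallest p for Insm1 and Nkx2-4, and p = 1 for Nkx2-2 and Pax1. Without PHS replicate 3 the mean log2 ratio of Nkx2-2 was -0.72 in place of 0.52, and that of Pax1 0.16 in place of -0.44.

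**Figure D3:**
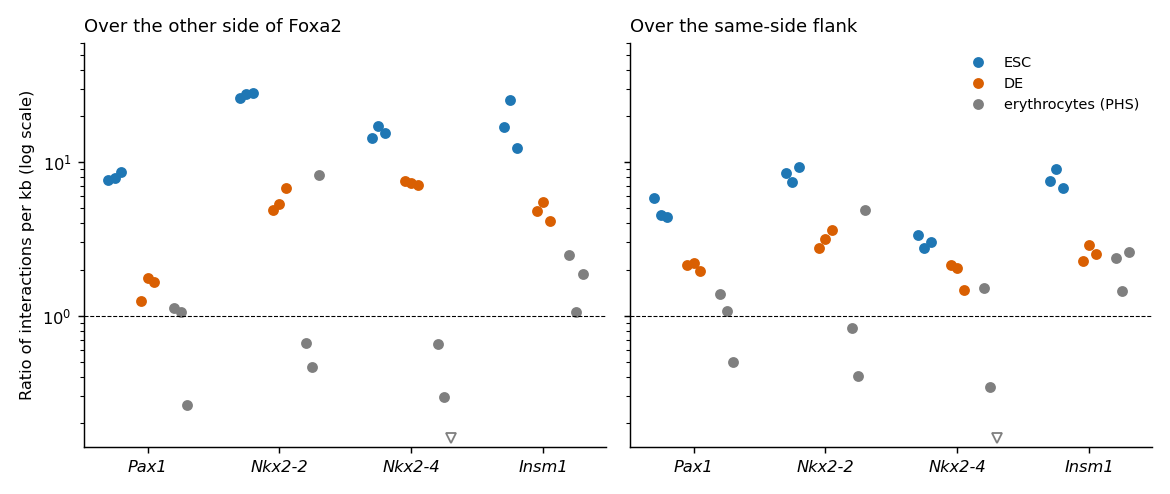
Ratio of interactions per kb in each gene's window to the other side of Foxa2 (left) and to the flank 20 to 100 kb outside the window (right), on a log axis, with 1 point per library. The dashed line marks a ratio of 1, and the open triangle is the PHS library with 0 reads at Nkx2-4. All ESC and DE points lie above 1, and erythrocyte points lie on both sides of it.

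The windows were also read in 5 kb bins, with limma run over every bin of the chromosome that held at least 10 reads and p-values adjusted by Benjamini-Hochberg. Of 31 bins in the 4 windows, 10 were called lower in DE than in ESC, against 2.27% of all tested bins. None was called higher by limma, which called 0.379% of all tested bins higher. Nor was any called higher by edgeR or DESeq2 or at an unadjusted p under 0.05. For unadjusted counts the share of all bins was not taken. This contrast chose the genes, so the counts are a description. By gene they were 4 of 8 bins at Nkx2-2, 4 of 11 at Pax1, 2 of 6 at Insm1 and 0 of 6 at Nkx2-4, where 3 bins were lower at an unadjusted p under 0.05 and edgeR and DESeq2 each called 2. The median log2 difference (DE minus ESC) over the 31 bins was -1.40, beside 0.14 over all tested bins. The count was 3 without ESC replicate 1 or 2, 5 without ESC replicate 3, 4 without DE replicate 2 and 6 without DE replicate 3. Without DE replicate 1 limma called 0 of the 31 bins, and 22 were lower at an unadjusted p under 0.05. In these left-out fits 0% to 1.60% of all tested bins were called lower. edgeR and DESeq2, with all libraries, each called 21, where they called 6.31% and 6.06% of all tested bins.

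The erythrocyte counts are a description too. The erythrocyte libraries hold 88 reads in all 4 windows, so the member bins reached the minimum of 10 reads through ESC or DE, where they are high. Between erythrocytes and ESC, 25 of the 31 bins were called lower in erythrocytes, where 26.8% of all tested bins were. The count was 15 of 26 without ESC replicate 2 (10.3% of all bins) and 15 of 31 without ESC replicate 3 (11.9%), and DESeq2 called 13 (6.41%). Between erythrocytes and DE the count was 12 of 31, with 14.1% of all tested bins called. edgeR called 9 (10.8% of all bins) and DESeq2 0 (3.91%), with 9 lower at an unadjusted p under 0.05 in DESeq2. The limma count was 1, 3 and 4 without DE replicates 1, 2 and 3 (2.39%, 6.34% and 4.86% of all bins) and 20 without PHS replicate 1 (30.9%). In simulated data limma missed most changed bins in both erythrocyte comparisons. For erythrocytes against DE it made more false calls than its threshold allows. The simulation used the same spread between libraries for every cell type, which the erythrocyte libraries exceeded. Both comparisons share a cell type with the contrast that chose the genes. The median log2 differences over the member bins were -3.03 and -1.90, beside -1.18 and -0.94 over all bins tested.

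Within Pax1, the contacts of ESC were concentrated at the promoter. The fragment at chr2:147191324-147191745, in coding sequence, held 223, 158 and 193 interactions per 100000 in the ESC libraries, 29.7, 34.1 and 30.1 in DE and 0 reads in erythrocytes. It was the highest of the 134 fragments in 2 ESC libraries and the third highest in the other, and was chosen again whichever ESC library was left out. In the 5 kb centred on the TSS the ESC density was 338 ± 10.6 interactions per kb, against 69.1 ± 6.06 farther upstream and 50.2 ± 4.84 farther downstream. In DE the same 3 stretches held 47.5 ± 6.88, 19.5 ± 4.76 and 15.8 ± 1.15.

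At Nkx2-2 the contacts were spread more widely. In a 2 kb window moved along the gene, the stretch that stayed at or above half-maximum was 6.9 kb long, against 3.3 kb at Pax1. In ESC there were 192 ± 12.7 interactions per kb in the gene body and 43.6 ± 6.57 in the 10 kb to each side. The DE values were 32.7 ± 6.40 and 12.6 ± 0.974, and in both cell types every library had more in the body than any library had outside. The top fragment, chr2:147016836-147017565, is intronic in 2 noncoding transcripts assigned to Nkx2-2 and outside its 3 protein-coding transcripts. It held 167, 215 and 41.4 interactions per 100000 in the ESC libraries and ranked second, first and 30th of 83 fragments. Another fragment was chosen on leaving out ESC replicate 1 or 2, and the position of the peak is thus not resolved within the gene.

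At Nkx2-4 the top fragment, chr2:146909579-146909976, spans coding sequence and untranslated exon. It held 89.2, 43.0 and 55.2 interactions per 100000 in ESC, on 8, 6 and 4 reads, and was chosen again whichever ESC library was left out. The 5 kb around the TSS had 69.4 ± 19.3 interactions per kb in ESC and 19.6 ± 4.96 in DE. Farther upstream the values were 10.1 ± 5.93 and 7.38 ± 1.43, and farther downstream 11.8 ± 4.52 and 7.52 ± 0.497, where ESC and DE libraries overlapped. At Nkx2-4, then, ESC and DE were apart at the promoter, and their difference on either side was within the spread of the ESC libraries.

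The peak at Insm1 was not placed. Its top fragment lay 4.18 kb upstream of the TSS, outside the gene, and rested on 10 reads over the 3 ESC libraries. Leaving out ESC replicate 1 or 3 moved it. The 5 kb around the Insm1 TSS held 40.7 ± 3.22 interactions per kb in ESC and 13.2 ± 3.78 in DE, above the 19.2 ± 6.06 and 5.14 ± 1.61 farther upstream.

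All 4 promoters were richer in CpG than the median gene of the chromosome. The 2 kb around the TSS had 120 CG per kb at Insm1, 89.0 at Nkx2-4, 52.5 at Pax1 and 42.0 at Nkx2-2, and the median over 1845 protein-coding genes was 29.0. Of the 4, Insm1 had the most CG and Nkx2-2 the fewest. The share of these genes with fewer was 99.8% for Insm1, 98.2% for Nkx2-4, 80.1% for Pax1 and 68.7% for Nkx2-2. The genes lie at different distances from Foxa2, and a link between CG and contact across them was not tested. By CG per kb the top fragments ranked 2 of 134 at Pax1, 2 of 34 at Nkx2-4, 27 of 83 at Nkx2-2 and 28 of 49 at Insm1. Across the fragments of a window, CG per kb and ESC contact per kb were weakly related. Spearman's rho was between 0.14 and 0.28 over 34 to 134 fragments, which share libraries and depth.

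Genes around the 4 members were read from a list of 16. The windows of 3 of them overlap a member window (Ralgapa2, Xrn2 and Nkx2-2as, the antisense transcript of Nkx2-2). Of the other 13, 2 were lower in DE than in ESC with no overlap of libraries. Another 3 (Gzf1, Napb and Slc24a3) were higher with no overlap, and the rest overlapped. Thbd and Sstr4, the 2 that were lower, had the contact most like that of the members over the 9 libraries. Pearson's r between log2 densities was 0.97 and 0.93, among 44 genes with a median r of 0.21. The members were chosen for ESC above DE in these libraries, so a high r is not separate from the lower DE values. Thbd encodes thrombomodulin and Sstr4 a somatostatin receptor, and their windows overlap each other on the other side of Foxa2. Thbd had 47.4 ± 9.78 interactions per kb in ESC and 11.4 ± 1.94 in DE, and Sstr4 had 53.3 ± 7.72 and 13.5 ± 3.34. The third most like, Plk1s1, had an r of 0.79 but like values in ESC (7.84 ± 0.371) and DE (7.41 ± 1.12).

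The choice of the genes did not use the other 5 promoter viewpoints, which lie on other chromosomes and were captured in the same libraries. Few of their reads reached the 4 windows. From Eomes, a T-box regulator of endoderm, 7 reads fell there in ESC, where 1.17 would fall if reads were even over chromosome 2, a ratio of 5.98 (exact Poisson 95% interval 2.40 to 12.3). Of these reads 4 were in a single fragment beside the Nkx2-2 TSS, chr2:147012158-147012786, in ESC replicate 2, and whether they are PCR copies was not tested. The ratio was 2.75 (1.26 to 5.23) in DE on 9 reads, each in a different fragment, and 1.76 (0.805 to 3.34) on 9 reads with 20 kb in place of 10 kb around the genes. It was 2.20 (0.453 to 6.42) in erythrocytes on 3 reads. From Lhx1, a LIM homeobox regulator, the ratio was 0.916 (0.0232 to 5.10) in ESC on 1 read and 1.36 (0.369 to 3.47) in DE on 4 reads, and erythrocytes had 0 reads. The erythroid viewpoints gave values of a like size on as few reads. From Hbb the ESC ratio was 5.40 (0.654 to 19.5) on 2 reads, and from Slc25a37 the erythrocyte ratio was 2.26 (0.466 to 6.61) on 3 reads, with 0 reads in ESC and DE. From Hba, 0 reads fell in the windows in ESC where 3.31 would fall if even, 3 in DE (ratio 0.358, 0.0739 to 1.05) and 1 in erythrocytes. Differences between cell types were set against 40 exact two-sided permutation tests over viewpoints, genes and 2 contrasts, but 3 libraries against 3 allow no p under 0.1, so none could pass. The lowest p was 0.4.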

How the data were processed

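NG Capture-C from 6 promoters was analysed in 9 of 18 libraries. Columns of the enhancer capture (54) were not used. The authors mapped reads to mm9 and assigned them to DpnII fragments, with Trim Galore and Bowtie named in the submitters' processing notes without a version. The deposited values are a signal for each fragment and library, which sums to 100000 interactions in a column. Handling of duplicate reads is not given in the sources used here, and without molecular identifiers intervals cover counting error only. Dividing a column by its smallest step gave whole reads for 100% of its values (tolerance 0.05 reads), and these recovered reads were used for counts. Fragments absent from a file were taken as 0.

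The 4 genes, the gene list and the tests were chosen with earlier results of these data known. Windows were the gene body plus 10 kb, and genes besides them were named from the list of 16 or as the 3 most like in contact over the libraries (at least 30 reads, 0.3 to 3 Mb away). The TSS was the start shared by most protein-coding transcripts. The stretches within a window and the gene body comparison were chosen after the profiles were seen. limma was run on log2 of the level per 100000 chromosome 2 interactions plus 10, in 5 kb bins with at least 10 reads, on the 2 cell types compared, with a threshold of 0.05. edgeR and DESeq2 on recovered reads, other windows, references, scalings, pseudocounts, bins and each library left out were alternatives. The fits were also run on simulated counts with means taken from these bins. There limma kept fewer changed bins for the erythrocyte comparisons than for DE against ESC, and it exceeded its threshold of false calls for erythrocytes against DE. The simulation used the same spread between libraries for every cell type, so it lacked the wider spread of the erythrocyte libraries. Between replicates, the chi-square of 5 kb bin counts per degree of freedom was between 1.215 and 1.466 in ESC and DE. Counting noise alone gives about 1. In erythrocytes it was 3.32 for replicates 1 and 2, 11.7 for 1 and 3 and 22.3 for 2 and 3. The labels do not say that libraries came from separate cultures or animals beyond calling them biological triplicates, and p-values measure the spread between them.

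Fits were made with DESeq2 1.42.0, edgeR 4.0.16 and limma 3.58.1 under R 4.3.3. Other steps used scipy 1.17.1, pandas 2.3.3, numpy 2.4.6 and matplotlib 3.10.9 under Python 3.11.15.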

Additional observations from a re-analysis of the deposited data

Results flagged for a closer look

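Nkx2-4 was above the other side of Foxa2 in every ESC and DE library and below it in every erythrocyte library. The mean log2 ratio was -0.79 ± 0.37 (SD, n = 3) in erythrocytes, 3.96 ± 0.13 in ESC and 2.87 ± 0.04 in DE. The difference between cell types was not tested, since ESC and DE values chose the gene. The erythrocyte value rests on 6 reads in 3 libraries, and counted per fragment in place of per kb the erythrocyte value was 0.23. Over the same-side flank the ratio was 1.53 in PHS replicate 1, which held 5 of these reads, and 0.343 and 0 in PHS replicates 2 and 3. In PHS replicate 3 the other-side reference itself held only 6 reads.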

How the results depend on the processing

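All 88 alternative values of the ratio of a gene to its reference in ESC and DE were above 1, between 1.37 and 48.9. ESC and DE values chose the genes and the alternatives reuse the same reads, so this is a description and no support. The median ratio over the 4 genes was 17.0 in ESC, 5.23 in DE and 1.31 in erythrocytes. In that order it was 21.9 and 6.19 (ESC and DE) with windows of 5 kb around the gene body, 12.9 and 4.30 with 20 kb, 23.8, 6.99 and 1.15 with 5 kb to each side of the TSS, 28.1, 7.27 and 1.59 against the exact mirror image, 6.34, 2.33 and 1.51 against the same-side flank, and 27.6, 6.79 and 1.54 per fragment. With a wider band of distances as reference it was 4.58 in DE. Leaving out 1 erythrocyte library gave between 0.830 and 1.43, and it was 0.830 without PHS replicate 3. In erythrocytes the log2 ratio changed sign for Nkx2-4 per fragment (0.23), for Pax1 around the TSS (0.23) and, without PHS replicate 3, for Nkx2-2 (-0.72) and Pax1 (0.16). With 1 library left out it was between -0.72 and 1.24 for Nkx2-2 and between -0.76 and 0.16 for Pax1. The log2 ratio of DE to ESC levels kept its sign in all 4 genes under both other scalings and without any ESC or DE library. That sign was part of the choice of the genes.

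The count of member bins called lower depended on the settings (in brackets, the share of all tested bins or fragments called lower). For DE against ESC (10) it was 5 (1.01%) and 21 (6.57%) with pseudocounts of 2 and 50, 16 (4.17%) scaled to all interactions, 6 (1.39%) with TMM factors, 21 with edgeR (6.31%) and with DESeq2 (6.06%), 54 of 143 single fragments (5.62%), 4 of 18 bins of 10 kb (1.04%), 3 (0.884%) with all 3 cell types in the fit, and between 0 and 6 (0% to 1.60%) with 1 library left out. For erythrocytes against ESC (25) it was 14 (9.84%) with TMM factors, 13 (6.41%) with DESeq2, 80 of 89 single fragments (31.9%), 14 of 18 bins of 10 kb (19.8%), and between 15 and 24 (10.3% to 31.7%) with 1 library left out. For erythrocytes against DE (12) it was 7 (14.4%) with a pseudocount of 2, 5 (9.08%) with TMM factors, 0 (3.91%) with DESeq2, 5 (0.273%) with no minimum, 27 of 53 single fragments (39.3%), 7 of 18 bins of 10 kb (6.23%), and between 1 and 20 (2.39% to 30.9%) with 1 library left out. With the replicate number as a replicate block the counts were 6 (1.64%), 23 (21.5%) and 16 (15.6%), although correlations of same-numbered libraries between -0.083 and 0.056 do not show that the numbers pair the samples. With 1 library left out the trans ratio from Eomes was between 0 and 3.00 in erythrocytes (0 without PHS replicate 1), and that from Lhx1 was between 0 and 1.55 in ESC (0 without ESC replicate 3). The erythrocyte libraries hold 88 reads in the 4 windows and the Eomes viewpoint 7 in ESC, 9 in DE and 3 in erythrocytes. The cause of these changes was not tested.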
